A study of Mus musculus with 8 samples.

Results

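The genes described here are 34 genes of glucose uptake, glycolysis and glycogen breakdown, of 51789 genes in the deposited count table. They were chosen by name: transporters of glucose and lactate, the enzymes from hexokinase to lactate dehydrogenase, the PFKFB and pyruvate dehydrogenase kinase (PDK) families that set the flow through the pathway, and enzymes of glycogen. All 34 were found in the table and passed the filter on low counts. RNA from whole abdominal mammary glands of female C57BL/6 mice was sequenced 6 weeks after a single injection of small extracellular vesicles (sEVs), which are membrane particles that cells shed. Glands of the sEVHYP group (2 libraries) had received sEVs from hypoxic cultures of AT3, a mouse mammary adenocarcinoma line that metastasizes. The sEVNORM group (3 libraries) had received sEVs from the same line in normoxia, and the sEVCTRL group (3 libraries) vesicles prepared from medium that had held no cells. In the study's methods the C57BL/6 mice are the albino strain B6(Cg)-Tyrc-2J/J, which carries a coat colour allele of Tyr. No engineered allele is named for these mice, and their age at injection was not given in the sources used here.

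Glycolysis splits glucose into pyruvate in the cytosol, and lactate dehydrogenase and the monocarboxylate transporters turn pyruvate into lactate and move it across the membrane. Many steps are run by a pair of isoforms, one found in most cells and one enriched in skeletal muscle, such as Pgam1 and Pgam2 or Eno1 and Eno3. Several of the widely expressed genes are textbook targets of HIF1A, the transcription factor stabilized in hypoxia, while muscle burns its own glycogen through the muscle phosphorylase Pygm. A whole mammary gland is mostly fat with ducts, vessels and immune cells in it, and lies against the skin and the body wall muscle.

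The muscle isoforms have to be read beside how much skeletal muscle RNA each gland held. The summed level of 20 skeletal muscle markers, led by Myh4 and Acta1, was 930, 13169 and 3237 CPM (the count of a gene relative to its library's total, after TMM scaling) in the sEVCTRL libraries, 4273, 64.8 and 2238 in the sEVNORM libraries, and 6746 and 18214 in the sEVHYP libraries. The highest library was thus 281-fold above the lowest, sEVNORM replicate 2, and both sEVHYP libraries lay above all 3 sEVNORM libraries. Among the 20 markers, that order did not hold for Myh1, Myh2 and Mb, whose sEVHYP and sEVNORM libraries overlapped. Other cell types differed far less. Summed markers ranged from 10786 to 19322 CPM for white adipocytes (led by Lpl and Fabp4), from 982 to 2152 for luminal epithelium (Prlr, Krt19), from 320 to 523 for basal epithelium (Acta2, Oxtr) and from 3529 to 5842 for fibroblasts (Dcn, Col3a1). They ranged from 523 to 702 CPM for endothelium (Pecam1, Cdh5), from 1075 to 1625 for macrophages (Lyz2, Mrc1), from 889 to 3339 for B cells (Ms4a1, Jchain) and from 293 to 573 for T cells (Trac, Cd8a). Brown adipocyte markers (Cox8b, Ppargc1a) summed to 56.0 and 92.1 CPM with sEVHYP against 32.8 to 54.9 in the other libraries. The genes of that list did not move together. Cidea and Prdm16 were highest in sEVCTRL replicate 3, at 8.04 CPM each. Ucp1, which defines brown adipocytes, ranged from 0 to 6.16 CPM. It was at 0.321 and 6.16 CPM with sEVHYP and at 2.04 CPM in sEVNORM replicate 2. Skin keratinocyte markers (Krt10, Sbsn) reached 75.0 CPM in sEVNORM replicate 3 and 8.54 to 13.2 CPM elsewhere, with Krt2 at 0 in every library. In bulk tissue, fewer cells of a type and less RNA per cell cannot be told apart. Library totals ranged from 18194996 to 24622569 counts.

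Per kilobase of exon, the most abundant members were Aldoa, the aldolase of muscle and most other tissues, at a median of 216 CPM per kilobase over the 8 libraries, and Ldha, which makes lactate from pyruvate, at 183. Gapdh followed at 95.1, Pgam1 at 82.5 and Pgk1 at 64.8 CPM per kilobase. The lactate exporter Slc16a3 was the lowest, at 0.196 CPM per kilobase, and rested on 7 to 68 counts per library. Among the 3 phosphofructokinases, the muscle form Pfkm had a higher median (6.79 CPM per kilobase) than Pfkp (3.64) or Pfkl (1.54), but the order was not that of every library. In sEVCTRL replicate 1 Pfkm (2.43) lay below Pfkp (4.19), and in sEVNORM replicate 2 Pfkm (1.06) lay below both Pfkp (3.39) and Pfkl (1.38). Copies elsewhere in the genome make some of these values uncertain: 123 genes near identical to part of Gapdh held a further 24.9% of its count, and the shares were 8.10% for Eno1, 6.86% for Pkm, most of it in a gene that overlaps Pkm on the same strand, and 5.24% for Pgk1.

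The comparison of sEVHYP with sEVNORM asks what hypoxia of the donor cells added. Of the 34 members, 11 were higher with sEVHYP at an unadjusted P under 0.05 in edgeR's quasi-likelihood test, 0 were lower and 23 did not pass. A positive log2 fold change was found for 29 (47% of all genes tested had one). Among all 17858 genes tested, 2.25% were higher, 1.7% lower and 3.95% either at that threshold, which is the one the study used and is meant below where a gene is said to pass. The median log2 fold change was 0.47 over the members and -0.02 over all genes. Both sEVHYP libraries lay above all 3 sEVNORM libraries for 17 members and below them for 0, where 12.3% and 10.5% of all genes did. After Benjamini-Hochberg adjustment over all genes, edgeR called 0 members and 0 genes (members' adjusted P = 1.00 at the smallest), and DESeq2 on only these libraries called 1 member, Pkm (adjusted P = 0.00457). At an unadjusted P under 0.05 that DESeq2 fit called 11 members and 4.54% of all genes. How many of all genes it called after adjustment is not given here, so Pkm is not shown to stand alone. The labels give no batch, and nothing in them says how the glands were collected, so P values measure the spread between these libraries.

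**Figure D1:**
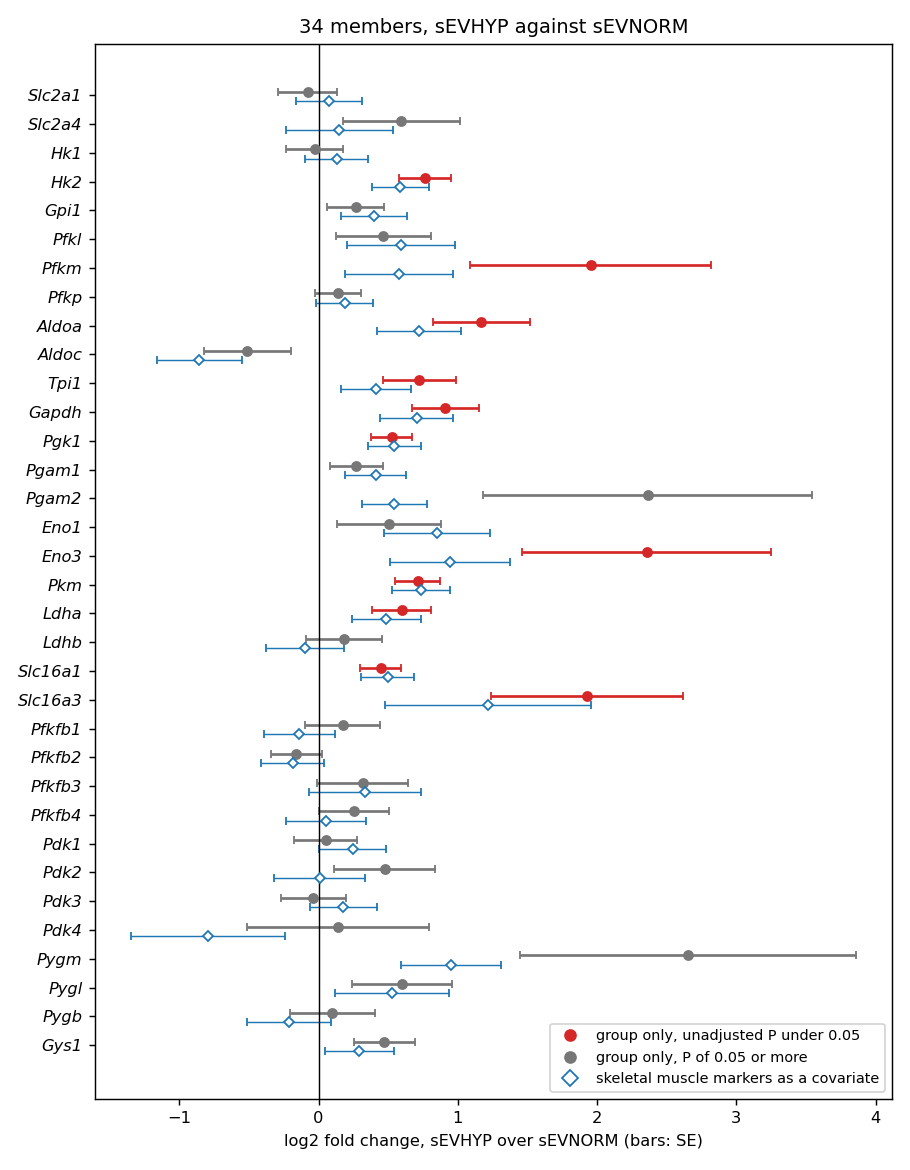
Log2 fold change of the 34 members, sEVHYP over sEVNORM (horizontal axis, bars are SE), from the fit with group only (circles, red where the unadjusted P was under 0.05) and from the fit that also holds the skeletal muscle marker score (open diamonds). The circles of Pfkm, Pgam2, Eno3 and Pygm lie far to the right at 1.95 to 2.65 and their diamonds at 0.54 to 0.95, while those of Pkm, Pgk1 and Slc16a1 hardly part.

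Among the widely expressed enzymes of the later steps, from Gapdh on, Gapdh, Pgk1 and Pkm passed and Pgam1 and Eno1 did not. Pkm, the pyruvate kinase that makes pyruvate in most cells (chromosome 9, 59656368 to 59679375), was at 143, 129 and 118 CPM with sEVNORM and 216 and 209 CPM with sEVHYP. The groups were well apart, and the sEVCTRL libraries, at 161, 142 and 184 CPM, fell between them except that replicate 2 lay just under the highest sEVNORM library. The means were 130 ± 12.7 CPM (SD, n = 3) and 212 ± 5.33 CPM (SD, n = 2), and the log2 fold change against sEVNORM, 0.71 (SE 0.16), passed. Gapdh, the dehydrogenase that yields NADH, was at 404, 243 and 264 CPM with sEVNORM and 561 and 581 CPM with sEVHYP, a log2 fold change of 0.91 (SE 0.24) that passed. Pgk1, which makes the first ATP of the pathway (chromosome X, 106187100 to 106203699), was at 128, 116 and 112 CPM with sEVNORM and 170 and 172 CPM with sEVHYP, a log2 fold change of 0.53 (SE 0.15) that passed. For all 3 of these enzymes each sEVHYP library lay above every other library. Pgam1 and Eno1, the partners of the muscle isoforms, had log2 fold changes of 0.27 (SE 0.19) and 0.51 (SE 0.37). The Eno1 libraries overlapped, at 262, 296 and 242 CPM with sEVNORM and 487 and 272 CPM with sEVHYP.

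Of the transporters and hexokinases that bring glucose into the cell, Hk2 passed and the others did not. Hk2, the inducible hexokinase that traps glucose in the cell (chromosome 6, 82725025 to 82774454), was at 24.6, 20.3 and 30.6 CPM with sEVNORM and 41.2 and 44.2 CPM with sEVHYP. Its log2 fold change of 0.76 (SE 0.19) passed, with sEVHYP above every other library. Hk1, the housekeeping hexokinase, was level at 18.9 to 21.5 CPM with sEVNORM against 22.6 and 16.6 CPM with sEVHYP (log2 fold change -0.03, SE 0.20). The basal glucose transporter Slc2a1 overlapped between groups, at 24.3 to 31.5 CPM and 31.5 and 22.9 CPM (log2 fold change -0.08, SE 0.21). The insulin-responsive transporter Slc2a4 of fat and muscle was at 48.6, 17.3 and 40.1 CPM with sEVNORM and at 53.4 and 53.3 CPM with sEVHYP. Its difference, 0.59 on the log2 scale (SE 0.42), did not pass, and sEVCTRL replicate 3 was the highest library at 71.0 CPM.

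**Figure D2:**
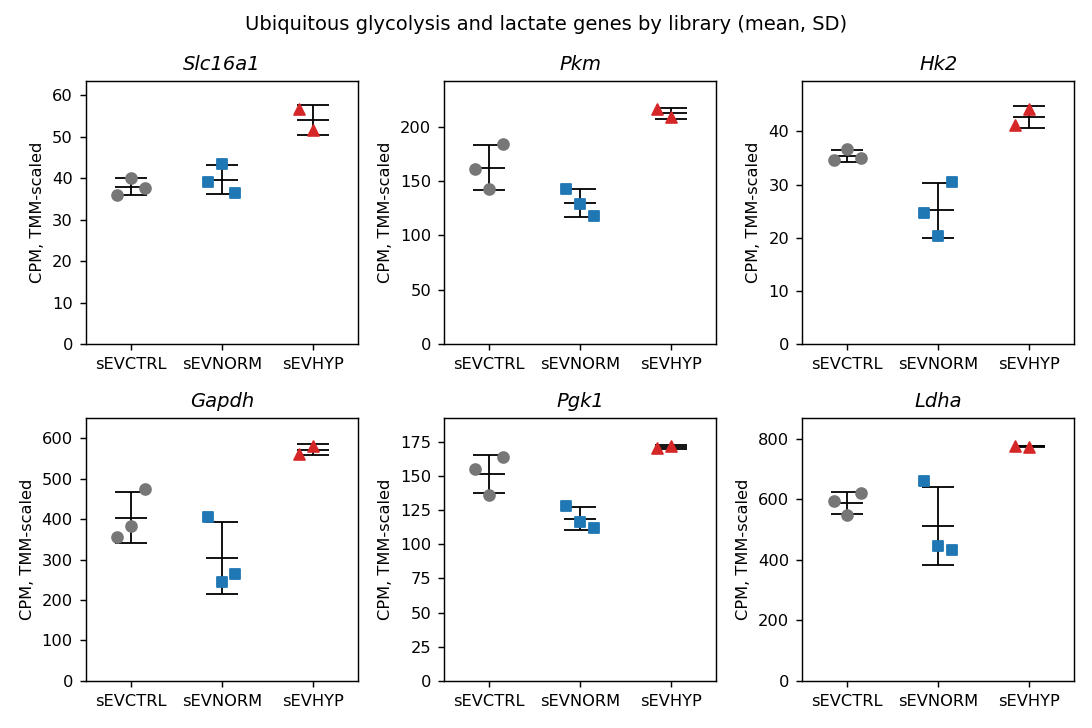
TMM-scaled CPM of Slc16a1, Pkm, Hk2, Gapdh, Pgk1 and Ldha (vertical axes, from 0) in each library of the 3 groups, with the mean and SD of each group in black. In each panel the 2 sEVHYP libraries sit above all 6 others, and Hk2 and Pgk1 are lowest with sEVNORM.

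Aldolase and triose phosphate isomerase, in the earlier steps, had the same direction with a wider spread, and both passed. Aldoa was at 588, 266 and 383 CPM with sEVNORM and at 787 and 1066 CPM with sEVHYP, a log2 fold change of 1.17 (SE 0.35). Tpi1 was at 163, 98.2 and 127 CPM against 188 and 239 CPM (0.72, SE 0.26). Aldoc, an aldolase best known from brain, was low throughout at 3.80 to 6.84 CPM, and its log2 fold change of -0.51 (SE 0.31) did not pass. Gpi1, Pfkl and Pfkp had overlapping groups and log2 fold changes of 0.27, 0.46 and 0.14 that did not pass.

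The lactate step held 3 of the called members. Slc16a1 (MCT1), which carries lactate and pyruvate in either direction (chromosome 3, 104638668 to 104658462), was at 39.2, 43.4 and 36.5 CPM with sEVNORM and 56.7 and 51.6 CPM with sEVHYP. The sEVCTRL libraries, at 36.0, 40.1 and 37.8 CPM, lay among those of sEVNORM. The means were 39.7 ± 3.49 CPM (SD, n = 3) with sEVNORM and 54.1 ± 3.58 CPM (SD, n = 2) with sEVHYP, a log2 fold change of 0.45 (SE 0.15). Ldha was at 660, 444 and 432 CPM with sEVNORM and at 776 and 773 CPM with sEVHYP (log2 fold change 0.60, SE 0.21), and Ldhb, the form that favours pyruvate, had a log2 fold change of 0.18 (SE 0.27) and did not pass. Slc16a3 (MCT4), the lactate exporter of fast muscle and hypoxic cells, was at 1.21, 0.532 and 0.331 CPM with sEVNORM and 1.69 and 3.64 CPM with sEVHYP (log2 fold change 1.93, SE 0.69).

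Regulators of the pathway gave no call. The 4 PFKFB genes, whose products set the level of fructose 2,6-bisphosphate, had log2 fold changes from -0.16 (Pfkfb2) to 0.32 (Pfkfb3). The 4 PDK genes, which switch off pyruvate dehydrogenase, ran from -0.04 (Pdk3) to 0.47 (Pdk2). Pdk1 was at 62.4 to 70.7 CPM with sEVNORM and at 82.3 and 53.5 CPM with sEVHYP, and Pdk4 ranged from 87.5 to 384 CPM over the 8 libraries with both extremes in sEVCTRL. Of the glycogen genes other than Pygm, the synthase Gys1 came nearest without passing (log2 fold change 0.47, SE 0.22), at 49.0, 38.1 and 49.5 CPM against 54.5 and 71.9 CPM. The liver phosphorylase Pygl had 0.60 (SE 0.36) and the brain form Pygb 0.10 (SE 0.30).

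The muscle isoforms had the largest fold changes and the largest spread. Pfkm, the muscle phosphofructokinase, was at 24.3, 3.55 and 18.3 CPM with sEVNORM and 33.9 and 85.3 CPM with sEVHYP, a log2 fold change of 1.95 (SE 0.86) that just passed. Eno3, the muscle enolase, was at 57.9, 9.53 and 44.0 CPM against 117 and 263 CPM (log2 fold change 2.35, SE 0.89) and passed. The same order of libraries held for Pgam2, the muscle phosphoglycerate mutase, at 17.4, 0.443 and 11.2 CPM against 30.6 and 69.1 CPM, whose difference of 2.36 (SE 1.18) did not pass. Pygm, which frees glucose units from muscle glycogen, was at 93.8, 1.77 and 41.0 CPM against 152 and 422 CPM (log2 fold change 2.65, SE 1.21) and did not pass. In each of these 4 genes sEVNORM replicate 2 was the lowest of the 8 libraries and sEVHYP replicate 2 the highest. The controls spread as widely: Pygm was at 25.6, 226 and 95.2 CPM in the sEVCTRL libraries, so sEVCTRL replicate 2 was above sEVHYP replicate 1 for this gene.

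Each gene's slope on the skeletal muscle score (the mean log2 CPM of the 20 markers) was tested in a model that also held the group. It was positive at an adjusted P under 0.05 for 4 of the 34 members, where 1.15% of all genes had such a positive slope and 1.21% one of either sign. These were Pgam2 (0.80 per unit of score, SE 0.04, adjusted P = 2.47e-05), Pygm (0.78, SE 0.07, adjusted P = 0.000243), Pfkm (0.47, SE 0.06, adjusted P = 0.00402) and Eno3 (0.47, SE 0.06, adjusted P = 0.00610). At an unadjusted P under 0.05, 11 members had a positive slope (9.12% of all genes, and 14.1% in either direction). The slopes of Pkm, Pgk1 and Slc16a1 were -0.01, 0.00 and -0.01 per unit, with SE of 0.03 each, and those of Aldoa and Tpi1 were 0.14 and 0.09. With the score in the model, the sEVHYP to sEVNORM difference of Pfkm was 0.57 (SE 0.39) in place of 1.95 and of Eno3 0.94 (SE 0.43) in place of 2.35, and neither passed. For Pgam2 it was 0.54 (SE 0.23) in place of 2.36 and for Pygm 0.95 (SE 0.36) in place of 2.65, and these passed. The differences of 6 members without a slope at an adjusted P under 0.05 moved less. Pkm had 0.74, Pgk1 0.54, Slc16a1 0.50, Hk2 0.59, Gapdh 0.71 and Aldoa 0.72. Aldoa moved the most of the 6, from 1.17, and its slope had an unadjusted P under 0.05. These 6 passed at an unadjusted P under 0.05 with and without the score. Slc16a3 (1.22), Ldha (0.49) and Tpi1 (0.41) did not pass with the score. In that fit 9 members were higher and 1, Aldoc, lower, where 4.7% of all genes passed in either direction. Outside the 4 genes with a slope, the median log2 fold change of the other 30 members was 0.38, with 9 of them called, against 2.36 for the 4.

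**Figure D3:**
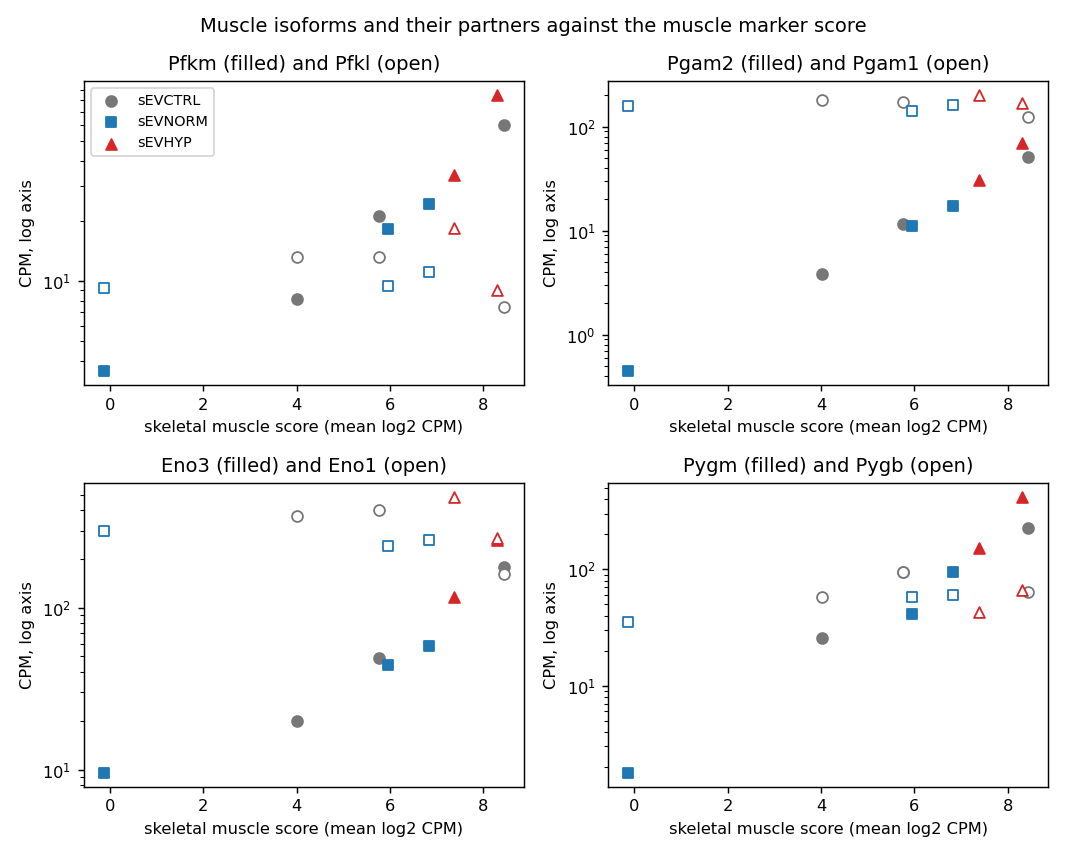
CPM (log axis) of 4 muscle isoforms (filled) and their more widely expressed partners (open) against the skeletal muscle score of each library, coloured and shaped by group. The filled points climb from sEVNORM replicate 2 at the far left (0.443 CPM for Pgam2, 1.77 CPM for Pygm) to the libraries at the right, while the open points show no such climb, with Pgam1 between 123 and 202 CPM.

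Leaving out 1 library bore on the number of calls. It was 6 of 34 without sEVNORM replicate 3, where 3.5% of all genes passed, and 7 without sEVNORM replicate 2, where 2.84% did. Pkm and Gapdh passed in all 17 alternatives, and Hk2, Aldoa and Pgk1 in 16. Slc16a1 passed in 14, Tpi1, Eno3 and Ldha in 12, Slc16a3 in 10 and Pfkm in 8. Ldha missed the threshold without sEVNORM replicate 2, sEVNORM replicate 3 or either sEVHYP library (log2 fold changes of 0.49 to 0.59), and Slc16a1 without sEVNORM replicate 3 (0.39) or sEVHYP replicate 1 (0.38). Without sEVHYP replicate 2, the log2 fold changes of Pfkm (1.13), Eno3 (1.64), Tpi1 (0.53), Slc16a3 (1.27) and Aldoa (0.92) did not pass. With the brown adipocyte score as a covariate, which did not overlap between the sEVHYP libraries and the others, 6 members passed (1.91% of all genes). They were Pkm, Gapdh, Ldha and Aldoa, with Pfkl and Pygl, which had not passed without it. Hk2, Pgk1, Slc16a1, Tpi1, Pfkm, Eno3 and Slc16a3 did not pass with that score. Cox7a1, a gene of the brown score, had a slope on the muscle score of 0.29 (SE 0.07). That slope had an unadjusted P under 0.05 (adjusted P = 0.109).

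Against sEVCTRL, the comparison with vesicles that came from no cells, 2 members were higher with sEVHYP and 0 lower, where 1.39% of all genes were higher, 1.06% lower and 2.45% either. Slc16a1 had a log2 fold change of 0.51 (SE 0.15) and Pkm of 0.39 (SE 0.16). Both sEVHYP libraries lay above all 3 sEVCTRL libraries for 7 members and below them for 0 (6.7% and 6.08% of all genes). The 7 were Hk2, Aldoa, Gapdh, Pgk1, Pkm, Ldha and Slc16a1. None of the 7 had a slope on the muscle score at an adjusted P under 0.05, though Aldoa (0.14 per unit) had one at an unadjusted P under 0.05. The log2 fold changes of those that did not pass were 0.27 for Hk2, 0.57 for Aldoa, 0.50 for Gapdh, 0.18 for Pgk1 and 0.40 for Ldha. The muscle isoforms overlapped, with log2 fold changes from 0.99 (Pfkm) to 1.31 (Pygm) and SE of 0.86 to 1.18. The median over the members was 0.25, and 26 of 34 were positive (47.5% of all genes). After adjustment edgeR called 0 members, and so did DESeq2 on only these groups. Without sEVHYP replicate 1, which leaves 1 library in that group, the log2 fold changes were 0.45 for Slc16a1 and 0.36 for Pkm. Without sEVCTRL replicate 2, 4 members passed (Pfkm, Eno3, Slc16a1 and Slc16a3), where 8.32% of all genes did. Slc16a1 alone passed without sEVCTRL replicate 1 (2.39% of all genes), sEVNORM replicate 2 (2.37%) or sEVNORM replicate 3 (1.92%). With the brown adipocyte score neither Slc16a1 (0.47) nor Pkm (0.63) passed, and Gapdh, Ldha and Pygl did, where 1.41% of all genes passed. With the skeletal muscle score Slc16a1 and Eno3 passed and Pkm did not, where 3.32% of all genes passed.

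Between sEVNORM and sEVCTRL, 2 members were lower and 0 higher, where 0.734% of all genes were lower, 0.89% higher and 1.62% either. The comparison used no sEVHYP level, but the sEVHYP libraries were in the same model and shared its estimate of the spread. Hk2 was at 34.5, 36.6 and 34.9 CPM with sEVCTRL and 24.6, 20.3 and 30.6 CPM with sEVNORM, a log2 fold change of -0.49 (SE 0.17). Pgk1 was at 155, 136 and 164 CPM against 128, 116 and 112 CPM (log2 fold change -0.35, SE 0.13). These 2 and Pfkfb4 had every sEVNORM library below every sEVCTRL library (2.17% of all genes did), and 0 members had every one above (2.69%). Of the 34 members, 7 had a positive log2 fold change (49.8% of all genes did), with a median of -0.25. After adjustment edgeR and DESeq2 called 0 members. The count was 0 without sEVNORM replicate 2 (1.26% of all genes passed). It was 1 without sEVNORM replicate 3 (1.65%) or sEVCTRL replicate 3 (1.34%), and 5 without sEVNORM replicate 1 (1.91%) or sEVCTRL replicate 1 (3.2%). The 3 comparisons share libraries, so a low sEVNORM value of a gene enters both this comparison and that of sEVHYP with sEVNORM.

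The ratio of 2 isoforms of a step within a library does not depend on library size. Across 7 pairs, an exact permutation test over the 3 groups found a difference for Aldoa to Aldoc alone (permutation p = 0.00357, the smallest the 8 libraries allow, Benjamini-Hochberg 0.025 over 7 ratios). The log2 ratio of counts was 6.69, 6.79 and 6.95 with sEVCTRL, 6.42, 5.99 and 5.90 with sEVNORM, and 7.69 and 7.93 with sEVHYP, so the 3 groups did not overlap. Hk2 to Hk1 came next (permutation p = 0.0571, Benjamini-Hochberg 0.2), with log2 ratios of 0.38, -0.08 and 0.64 for sEVNORM against 0.86 and 1.41 for sEVHYP. The 4 muscle pairs varied most between libraries, and none of them passed: the highest library exceeded the lowest 141-fold for Pgam2 to Pgam1, 125-fold for Pygm to Pygb, 34.3-fold for Eno3 to Eno1 and 24.3-fold for Pfkm to Pfkl, with permutation p from 0.2 to 0.471. Slc2a4 to Slc2a1 had a permutation p of 0.507. Differences between 2 of the groups were not tested.

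**Figure D4:**
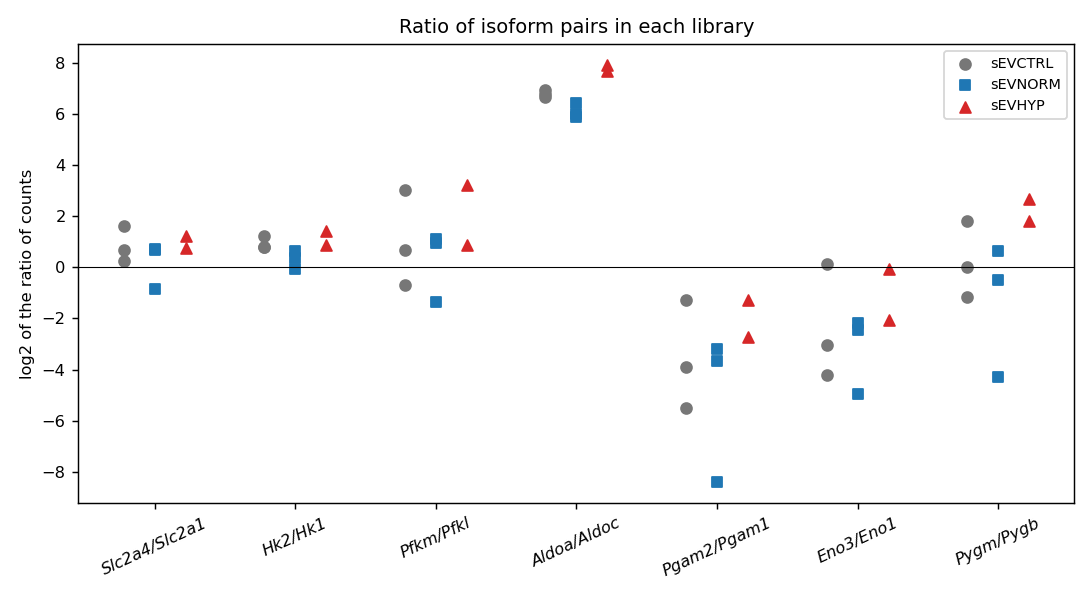
Log2 ratio of the counts of 7 isoform pairs in each library (vertical axis), by group. For Aldoa to Aldoc the sEVHYP points (7.69 and 7.93) lie above all others and the sEVNORM points lowest, while the Pgam2, Eno3, Pfkm and Pygm pairs scatter over several log2 units within groups.

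Promoters are shown for some of the members as examples. Pkm and Gapdh, which passed in every alternative, are not among them. The sequences are from RefSeq on GRCm38.p6, read in the direction of transcription, and 33 of the 34 members had an entry, Slc2a4 being the exception. Capitals mark ACGTG, the core of the hypoxia response element, on either strand (CACGT when it lies on the other strand). The 250 bases before the start are given for 4 members that hold it and had no slope on the muscle score at an adjusted P under 0.05: Slc16a1 (chr3:104638414-104638663, plus strand), Ldha (chr7:46845554-46845803, plus strand, the upstream of its 2 entries by position), Pgk1 (chrX:106186850-106187099, plus strand) and Hk2 (chr6:82774455-82774704, minus strand).
Slc16a1: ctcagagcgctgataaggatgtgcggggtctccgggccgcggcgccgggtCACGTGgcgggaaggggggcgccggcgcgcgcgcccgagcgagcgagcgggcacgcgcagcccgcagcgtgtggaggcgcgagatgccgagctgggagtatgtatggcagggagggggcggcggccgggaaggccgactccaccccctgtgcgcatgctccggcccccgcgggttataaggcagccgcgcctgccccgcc
Ldha: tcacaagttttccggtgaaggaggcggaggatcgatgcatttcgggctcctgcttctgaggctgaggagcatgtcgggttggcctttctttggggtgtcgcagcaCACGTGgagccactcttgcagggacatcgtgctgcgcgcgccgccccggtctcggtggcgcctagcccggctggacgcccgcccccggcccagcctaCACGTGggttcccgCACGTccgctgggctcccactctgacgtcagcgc
Pgk1: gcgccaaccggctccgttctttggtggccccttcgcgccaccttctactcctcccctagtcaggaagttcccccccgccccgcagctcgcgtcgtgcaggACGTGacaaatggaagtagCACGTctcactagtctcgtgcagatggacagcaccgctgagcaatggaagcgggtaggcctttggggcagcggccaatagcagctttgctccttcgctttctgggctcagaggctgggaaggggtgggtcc
Hk2: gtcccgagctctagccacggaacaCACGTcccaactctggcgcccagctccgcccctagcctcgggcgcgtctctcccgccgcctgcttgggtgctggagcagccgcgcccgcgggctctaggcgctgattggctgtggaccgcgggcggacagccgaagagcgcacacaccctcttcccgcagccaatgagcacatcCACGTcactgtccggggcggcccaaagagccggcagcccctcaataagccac

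For the muscle isoforms Pgam2 (chr11:5803797-5804046, minus strand) and Eno3 (chr11:70656926-70657175, plus strand), which had no ACGTG, capitals mark CANNTG, the E-box that muscle and many other factors read.
Pgam2: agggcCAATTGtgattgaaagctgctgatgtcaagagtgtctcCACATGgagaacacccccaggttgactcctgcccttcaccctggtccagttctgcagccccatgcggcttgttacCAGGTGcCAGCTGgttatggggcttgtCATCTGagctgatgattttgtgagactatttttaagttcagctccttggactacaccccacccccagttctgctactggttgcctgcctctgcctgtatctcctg
Eno3: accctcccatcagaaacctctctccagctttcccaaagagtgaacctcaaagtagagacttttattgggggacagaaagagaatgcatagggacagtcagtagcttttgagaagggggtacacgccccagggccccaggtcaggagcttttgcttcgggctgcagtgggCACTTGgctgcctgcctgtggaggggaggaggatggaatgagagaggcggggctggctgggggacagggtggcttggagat

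ACGTG was found in the window (250 bases before and 50 after the start) of 20 of the 33 members (60.6%), against 21.8% of 27025 genes searched the same way. It was there for 9 of the 11 members called higher with sEVHYP than with sEVNORM, Tpi1 and Eno3 being the others, and for 11 of the 22 not called. Of the muscle isoforms, Pfkm and Pygm had it, while Pgam2 and Eno3 did not. The printed promoters therefore do not stand for all muscle isoforms or for all widely expressed members. Member promoters were richer in G and C (median 60.3% against 52.7% over all promoters), and genes with more than 1 entry had more windows to search. The part of base composition in this difference was not tested. CANNTG, which overlaps ACGTG where CACGTG occurs, was found for 69.7% of members and 75.0% of genes. The core of the MEF2 site, which muscle genes often carry, was found for 1 member, Ldhb (3.03%), and 4.23% of genes. A match is a match of letters, and no binding was measured.

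Further genes of the pathway were listed by function. Of 57 listed, 46 were tested, and in sEVHYP against sEVNORM 40 had a positive log2 fold change (47% of all genes did), 14 were higher at an unadjusted P under 0.05 (2.25% of all genes) and 0 lower, with a median of 0.41 (-0.02 over all genes). None passed after adjustment in edgeR. All 10 genes of pyruvate entry into mitochondria were positive and 5 of them passed. Among these, Dlat, the acetyltransferase of the pyruvate dehydrogenase complex, was at 133, 109 and 126 CPM against 203 and 161 CPM (log2 fold change 0.57, SE 0.17), and Dld, its dehydrogenase, at 144, 140 and 163 CPM against 192 and 203 CPM (0.41, SE 0.15). Of 18 other glycogen genes, 17 were positive and 6 passed. Phka1, a subunit of phosphorylase kinase in muscle, was at 23.0, 15.2 and 19.6 CPM against 38.3 and 71.2 CPM (1.50, SE 0.43). Its slope was 0.16 per unit of muscle score, at an unadjusted P under 0.05 (adjusted P = 0.253). Ppp1r3b, which brings protein phosphatase to glycogen, had the smallest P (log2 fold change 1.84, SE 0.48), and its level was 35.4 CPM in sEVHYP replicate 1 but 8.35 CPM in replicate 2, against 5.63 to 6.91 CPM with sEVNORM. Against sEVCTRL, 4 of the 46 were higher with sEVHYP (1.39% of all genes were): Ppp1r3b (log2 fold change 1.47), Dld (0.46), Dlat (0.50) and Ldhd, which oxidizes D-lactate (0.56). Between sEVNORM and sEVCTRL 1 was lower, the muscle fructose bisphosphatase Fbp2 (log2 fold change -2.08, SE 0.91), whose slope on the muscle score was 0.59 (adjusted P = 0.0171).

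Targets of HIF1A outside glycolysis were listed for comparison. Of 12 such genes, Bnip3 and Vegfa were the highest in level. In sEVHYP against sEVNORM 9 of them had a positive log2 fold change (47% of all genes did), with a median of 0.23. Of the 12, 1 passed as higher, Ddit4, an inhibitor of mTORC1, where 2.25% of all genes were higher. It was 2.29-fold higher, at 8.29, 8.64 and 13.0 CPM with sEVNORM and 24.3 and 21.4 CPM with sEVHYP. Its sEVCTRL libraries were at 13.6, 23.6 and 12.2 CPM, so that replicate 2 lay between the sEVHYP libraries. In sEVHYP against sEVCTRL 0 of the 12 genes passed, where 2.45% of all genes did. In sEVNORM against sEVCTRL Ddit4 passed as lower (log2 fold change -0.73, SE 0.29), where 0.734% of all genes were lower. The 12 genes' summed level overlapped between groups, at 505 to 704 CPM with sEVNORM and 495 and 798 CPM with sEVHYP. The median of the 34 glycolytic members in the same comparison was 0.47, and the difference between the lists was not tested.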

How the data were processed

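PolyA RNA of 8 whole glands was made into libraries with a Lexogen SENSE mRNA-Seq kit. Per the labels and the study's methods, the authors used STAR for alignment (mm10) and RSEM 1.2.12 with Ensembl release 89 for quantification. What they deposited are raw, whole-number counts, of which 0.0389% fell in genes without a symbol. How RSEM's estimates were rounded is not given in the sources used here. Groups came from the labels.

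Counts were analyzed with edgeR 4.0.16 in R 4.3.3 (filterByExpr with a minimum count of 10, TMM, quasi-likelihood F-test, two-sided) in 1 model of the 3 groups, with Benjamini-Hochberg adjustment over 17858 genes. The unadjusted P of 0.05 is the study's threshold. CPM are TMM-scaled, and SE is the log2 fold change divided by the root of F. Muscle and brown scores are mean log2 CPM with a prior count of 2. Isoform ratios used counts plus 0.5. Positions and exon lengths are from GENCODE release M21 (GRCm38). Near-identical copies had at least 95% identity over 200 bases. Procedures were tested on simulated data.

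Fold changes are given for members with an unadjusted P under 0.05 and for the muscle isoforms, other members by level, range or fold change, and pathway genes that passed by at most the 5 smallest P per comparison, of which 1 is not reported here. Ddit4, Gys1 and the slope of Fbp2 were picked with their values in view. The members and lists were chosen with earlier results of these data known. Alternatives were DESeq2 1.42.0, other scaling and filters, fits on only the groups compared, a replicate block, marker covariates and each library left out.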

Additional observations from a re-analysis of the deposited data

How the results depend on the processing

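No member changed sign under an alternative in a comparison where it had passed. Over all 34 members 28 of 577 alternative values did for sEVHYP against sEVNORM (in 11 members), 31 for sEVHYP against sEVCTRL and 26 for sEVNORM against sEVCTRL, and none of these passed after the change. With the skeletal muscle score the sEVHYP to sEVNORM log2 fold change became 0.08 for Slc2a1, 0.13 for Hk1 and 0.18 for Pdk3, and -0.10 for Ldhb and -0.21 for Pygb. Of 475 alternative values for the members that passed and those set beside them, 392 stayed on the same side of the threshold, 59 lost it and 24 gained it. For sEVHYP against sEVNORM, 11 members passed (3.95% of all genes), and 6 with the brown adipocyte score as a covariate (1.91%). With 1 sEVNORM or sEVCTRL library left out, the count ran from 6 (3.5% of all genes, without sEVNORM replicate 3) to 14 (4.52%, without sEVCTRL replicate 1). DESeq2 on only the groups compared gave 1 member at an adjusted P under 0.05, where edgeR gave 0. For sEVHYP against sEVCTRL, 2 passed (2.45% of all genes), and 1 with edgeR on only the groups compared (1.74%). With 1 sEVNORM or sEVCTRL library left out, the count ran from 1 (1.92% of all genes without sEVNORM replicate 3) to 4 (8.32% without sEVCTRL replicate 2). The median of 0.25 was 0.47 with the brown adipocyte score. For sEVNORM against sEVCTRL, 2 passed (1.62% of all genes), 4 with DESeq2 on all libraries (1.28%) and 1 with the brown adipocyte score (1.18%). With 1 sEVNORM or sEVCTRL library left out, the count ran from 0 (1.26% of all genes, without sEVNORM replicate 2) to 5. The 5 came without sEVNORM replicate 1 (1.91%) or sEVCTRL replicate 1 (3.2%). Fits with 1 sEVHYP library left out are not counted in these ranges. The Hk2 to Hk1 ratio had a permutation p under the threshold in 2 of the fits with 1 library left out, where its sEVHYP minus sEVNORM difference was 0.99 and 1.10 on the log2 scale (range 0.55 to 1.10 over all 8). The causes of these shifts were not tested. Where 1 sEVHYP library is left out, the lone library is assumed to vary like the other groups.

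Same-numbered libraries did not consistently deviate together (correlations of -0.42 to 0.37), so there was no sign that the numbers pair the samples. These correlations cannot exclude a pairing or a shared batch, since the 2 sEVHYP libraries deviate from their mean as mirror images. With the replicate number as a block, 11 members passed for sEVHYP against sEVNORM (4.31% of all genes), 2 for sEVHYP against sEVCTRL (2.25%) and 2 for sEVNORM against sEVCTRL (1.41%). In the first, Pfkm, Eno3 and Slc16a3 no longer passed and Slc2a4, Pygl and Gys1 did, and in the second Pkm no longer passed and Pygl did. With 2 to 3 libraries a group, and few counts for Slc16a3, modest differences may go undetected at this depth and number.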
